A study of Mus musculus with 2 samples.

Results

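The cells described here are Tgm4-rich luminal epithelial cells in a dissection of the proximal and periurethral region of the mouse prostate, the tissue next to the urethra. A member is a cell barcode of that library with at least 500 detected genes, at most 10% of its UMIs (unique molecular identifiers, which count captured RNA molecules) from mitochondrial genes, at least 0.5% of its UMIs from Tgm4 and at most 5% from Sbp and Spink1 together. Of 3709 barcodes that passed the filters on genes and mitochondrial UMIs, 357 met the rule, 9.63% (exact 95% interval 8.70% to 10.6%). The rule uses measured values of the barcodes that are described, so every level and ratio below is a description of 1 library. All intervals cover counting error only, and no p-value is given.

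The study profiled prostate cells by droplet single-cell RNA sequencing, and all its mice were male, wild type and of strain C57BL6. It holds 2 libraries without replicates, 1 of ventral lobes and 1 of the region named above. The tissue was dissociated with papain and TrypLE, and the age and number of the mice are not given in the sources used here. Kit versions of the 10x Genomics 3′ chemistry differed (3 for the proximal, 2 for the ventral library), so effects of region and of kit cannot be told apart. The proximal library listed 4344 barcodes with 97817603 UMIs and the ventral library 2221 barcodes with 49356586 UMIs, and no barcode sequence occurred in both. After filtering, 3709 proximal barcodes had a median of 15266 UMIs and 1995 ventral barcodes were kept.

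The mouse prostate is made of paired lobes whose luminal cells secrete different proteins. The anterior lobe, also called the coagulating gland, is known for Tgm4, a secreted prostate transglutaminase that crosslinks seminal vesicle proteins into the copulatory plug. Tgm4 is also known from the dorsal lobe, so Tgm4 alone does not separate anterior from dorsal luminal cells. Msmb and Pbsn (probasin) are products of the dorsal and lateral lobes, among others, and Sbp and Spink1 are major products of the ventral lobe.

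Tgm4 separated members from the other barcodes, as the rule requires, with few in between. Its share of a member's UMIs had a lowest value of 0.504%, a median of 1.71% and a highest value of 3.46%. The other 3352 barcodes had a median of 0.00708%, and 935 of all kept barcodes had no Tgm4 UMI. Of the members, 308 had at least 1% and 116 had at least 2% of their UMIs from Tgm4. The 5 members nearest the threshold had 0.504%, 0.543%, 0.558%, 0.565% and 0.632%, and the 5 barcodes nearest below it had 0.477%, 0.469%, 0.460%, 0.453% and 0.432%. Only 51 kept barcodes lay between 0.1% and 0.5%, 27 of them at 0.25% or more, so few barcodes were near the limit.

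**Figure D1:**
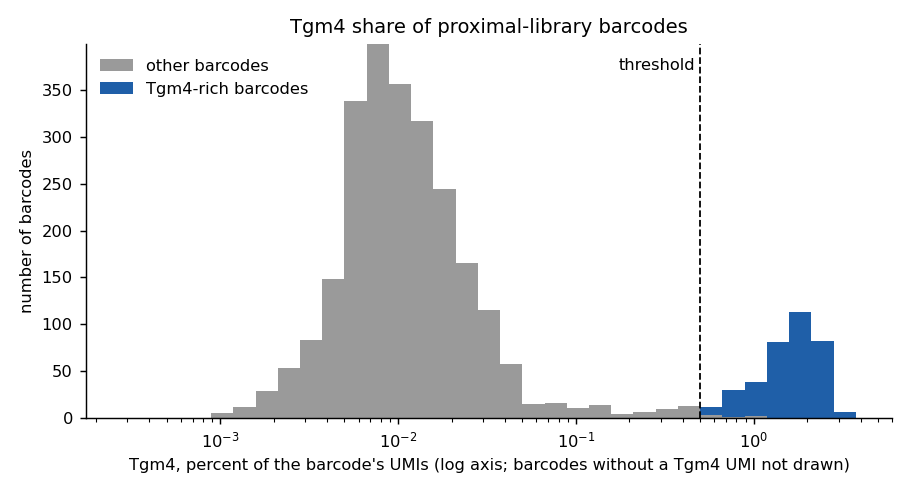
Number of kept proximal-library barcodes (vertical axis) by the share of their UMIs from Tgm4 in percent (horizontal axis, logarithmic), with the 357 Tgm4-rich barcodes in blue, the others in grey and the dashed line at the threshold of 0.5%. The Tgm4-rich barcodes form a separate hump with a median of 1.71%, and the others lie mostly near 0.01%.

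A further 6 barcodes reached the Tgm4 threshold but were left out because Sbp and Spink1 together made up 5.11% to 9.64% of their UMIs. In the members these 2 genes had a median of 0.135% and a highest value of 4.02%. In the ventral library no barcode met the rule. There 0 of 1995 barcodes allow a share of up to 0.150%, the highest Tgm4 share of a barcode was 0.0116%, and Tgm4 had 23 UMIs in 21 barcodes.

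Members were deep barcodes. They held a median of 33440 UMIs (lowest 825, highest 131325) and 5623 genes, against 14877 UMIs and 3569 genes in the other proximal barcodes. The median mitochondrial share was 3.67% in members and 4.28% in the others. For comparison, 4 more groups of the same library were set by their own genes. They were 149 Msmb-rich barcodes (Msmb at least 0.5%), 167 Sbp/Spink1-rich barcodes (together over 5%), 1201 proximal-luminal-type barcodes (Psca and Krt4 together at least 0.1%) and 86 leukocyte-type barcodes (Ptprc and other leukocyte genes). All of these groups but the Sbp/Spink1-rich one were also limited to under 0.5% Tgm4 and at most 5% Sbp and Spink1 together. Leukocytes should make no prostate secretions, so their level of a secretory gene is a measure of free RNA in this library. For Tgm4, Sbp and Spink1 that level is capped by the group's own limits.

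Levels below are CPM, in which the summed UMIs of every group are scaled to the same total. The kits count the 3′ ends of transcripts, so levels of different genes are not scaled by length. Ratios are log2 ratios of levels after adding 10 CPM to both, on which scale 1.00 is 2-fold, and they understate differences of genes with low levels. Of 16440 genes with at least 50 UMIs over both groups, 597 (3.63%) were at least 2-fold higher and 1154 (7.02%) at least 2-fold lower in members than in the other proximal barcodes. The median log2 ratio of all these genes was -0.06. These calls come from the contrast that chose the members, and the counts of gene lists given below stand beside this background.

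The label of luminal cells was checked first. The luminal keratin Krt18 was at 1735 CPM in members and 1490 CPM in the others, and after every barcode was thinned to 1000 UMIs it was found in 76.5% of 353 members, 51.5% of 3338 other barcodes and 5.81% of 86 leukocyte-type barcodes (unthinned 98.9%, 80.8% and 33.7%). Epcam, the epithelial adhesion molecule, was at 553 CPM in members and 865 CPM in the others. Krt18 was thus present in members above its level in leukocyte-type barcodes. Whether the cells came from the anterior or the dorsal lobe was not tested. The second luminal keratin, Krt8, was at least 2-fold lower than in the others, at 849 CPM against 2703 CPM, and the prostate homeobox factor Hoxb13 was higher, at 303 CPM against 107 CPM.

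Basal, fibroblast and macrophage markers were low in members. All 6 basal markers, among them the basal keratins Krt5 and Krt14, were at least 2-fold lower, with a summed level of 55.1 CPM against 1619 CPM, and Krt5 and Krt14 together never exceeded 0.0557% of a member's UMIs. Fibroblast markers, of which 5 of 6 were at least 2-fold lower, summed to 27.1 CPM against 839 CPM, and 2 members had at least 0.1% of their UMIs from fibroblast genes. Macrophage markers summed to 13.1 CPM in members and 6364 CPM in leukocyte-type barcodes, and leukocyte genes did not exceed 0.0300% of any member's UMIs. Endothelial genes reached 0.1% in 8 members and 0.410% in the highest. The 5 endothelial markers summed to 188 CPM in members and 264 CPM in the others, with a median log2 ratio of -0.18, and none passed 2-fold once 10 CPM was added to both levels. Pecam1 was at 172 CPM against 247 CPM and Emcn at 15.4 CPM against 8.93 CPM, while the endothelial cadherin Cdh5 was at 0.242 CPM against 4.73 CPM and the VEGF receptor Kdr at 0.322 CPM against 1.69 CPM. B cell markers summed to 10.9 CPM against 6.44 CPM and erythroid markers to 156 CPM against 114 CPM. Of the Msmb-rich group's defining gene, 20 members had at least 0.1% and 6 at least 0.5% of their UMIs, the highest 5.29%. Their part in the results was not tested.

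Tgm4 itself lies on chromosome 9 of mouse build mm10 (GRCm38), at chr9:123034726-123067561 on the plus strand. To show the start region of the gene that defines the members, the 250 bases before its RefSeq start are printed here with those of Ren1 and Pbsn, described below. They run 5′ to 3′ on each gene's own strand in build GRCm38.p6. They span chr9:123034491-123034740 (plus strand) for Tgm4, chr1:133350424-133350673 (plus strand) for Ren1 and chrX:77853501-77853750 (minus strand) for Pbsn. Capitals mark the letters TATAAA, the core of a TATA box.
Tgm4: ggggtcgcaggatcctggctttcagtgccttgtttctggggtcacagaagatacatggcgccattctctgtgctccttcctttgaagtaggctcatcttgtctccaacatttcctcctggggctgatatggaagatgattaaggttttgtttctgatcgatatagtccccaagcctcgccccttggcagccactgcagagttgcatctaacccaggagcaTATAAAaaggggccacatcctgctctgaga
Ren1: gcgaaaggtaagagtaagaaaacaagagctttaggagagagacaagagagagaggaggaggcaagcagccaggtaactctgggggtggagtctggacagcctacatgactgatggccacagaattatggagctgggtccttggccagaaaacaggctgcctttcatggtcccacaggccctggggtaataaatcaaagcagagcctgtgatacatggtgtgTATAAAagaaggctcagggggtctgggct
Pbsn: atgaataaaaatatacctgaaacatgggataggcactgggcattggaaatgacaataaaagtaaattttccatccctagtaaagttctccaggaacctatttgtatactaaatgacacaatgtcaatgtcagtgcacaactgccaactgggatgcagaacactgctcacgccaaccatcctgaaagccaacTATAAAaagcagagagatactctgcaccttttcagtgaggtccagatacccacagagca
The search covered both strands (TATAAA or TTTATA) from 250 bases before to 50 bases after each start. TATAAA began at position -30 from the start in Tgm4, at -29 in Ren1 and at -59 in Pbsn. The TATA letters occurred in 13.6% of 32851 such windows of all genes. Among the 15 genes with the highest ratio, 12 had a window in the table, and of their 13 windows 4 held the TATA letters. A match describes the letters only and does not show that a factor binds there.

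The secretory genes of the members were led by 9530053A07Rik, a protein-coding gene on chromosome 7 (chr7:28129466-28164811, plus strand), which the rule for named genes leaves out and which was chosen after its values were seen. It made up 0.0103% of UMIs in the lowest member, 2.76% in the median member and 22.3% in the highest, and was the most abundant gene in 188 of 357 members. Its level was 29550 CPM in members and 185 CPM in the other barcodes, a log2 ratio of 7.24. The leukocyte-type barcodes had 165 CPM and the other 3 groups 158 to 222 CPM, so outside members it was near the level in leukocytes. The 20 most abundant genes together made up 18.3% of all member UMIs.

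Tgm4 was at 17467 CPM (17393 to 17540) in members and 131 CPM in the other barcodes, a log2 ratio of 6.95 that the rule itself sets. Leukocyte-type barcodes had 107 CPM. Pbsn, the androgen-regulated lipocalin probasin, was at a higher level than Tgm4, with 18677 CPM in members and 2506 CPM in the others. Its share was 0.0155% in the lowest, 1.81% in the median and 7.02% in the highest member. It was as high in Msmb-rich barcodes, at 18803 CPM, and low in Sbp/Spink1-rich barcodes, at 422 CPM. Pbsn therefore did not set members apart from Msmb-rich barcodes, with a log2 ratio of -0.01 between them.

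Among the genes with the highest ratios, 2 belong to the Pate family, which encodes small cysteine-rich secreted proteins of the male reproductive tract. Pate14 (chr9:36635754-36643376) was at 7606 CPM in members, 86.9 CPM in the others and 36.1 CPM in leukocyte-type barcodes. Its share ran from 0 through a median of 0.119% to 7.09%, and 34 members had no UMI of it. Pate9 (chr9:36532397-36541963) was at 5013 CPM against 67.8 CPM, with a lowest share of 0, a median of 0.468% and a highest of 1.65%, and 3 members had no UMI of it. After thinning, Pate9 was found in 93.2% of members and 3.66% of the others, and Pate14 in 56.1% and 3.39%, while leukocyte-type barcodes had 4.65% and 5.81%. Both log2 ratios were high, 6.30 for Pate14 and 6.01 for Pate9, but Pate14 had no UMI in more members than Pate9. Of 14 Pate genes in the files 5 reached the UMI minimum, and the third that differed, Pate4, was lower in members, at 51.2 CPM against 244 CPM, with 50.5% of its member UMIs in 1 barcode. Its log2 ratio of -2.05 became -0.91 with the mean of per-barcode CPM. Of 8 transglutaminases 4 reached the minimum, and Tgm2, the widely expressed tissue transglutaminase, was at 1.45 CPM in members and 26.0 CPM in the others.

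Further high-ratio genes included enzymes, a channel-associated factor and complement proteases. Tcaf3, of a family of TRP channel-associated factors, was at 5564 CPM against 79.9 CPM and was found in 354 of 357 members, with a median share of 0.504%. Mmp7, the epithelial metalloproteinase matrilysin, was at 2555 CPM against 225 CPM, and proximal-luminal-type barcodes had 389 CPM of it. Rnase1, a secreted ribonuclease, was at 1931 CPM in members and 1012 CPM in Msmb-rich barcodes, against 22.8 CPM in proximal-luminal-type barcodes. Akr1b3, the aldose reductase of the polyol pathway, was at 1548 CPM against 119 CPM, and Msmb-rich barcodes had 267 CPM of it. Mmp7, Rnase1 and Akr1b3 were thus each higher in 1 other group than in the others as a whole, while Tcaf3 was at 40.4 to 79.7 CPM in the 4 other groups, leukocyte-type barcodes included.

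C1rb, a protease of the first complement component, was at 1086 CPM in members against 3.81 CPM in the others, and C1s2, its partner protease, at 160 CPM against 0.968 CPM. Both have a near-identical copy nearby on chromosome 6 (C1ra and C1s1), and how reads shared between copies were counted is not given in the sources used here, so these levels are uncertain. Fgl1, a secreted fibrinogen-like protein, was at 774 CPM against 3.69 CPM. Gsdma, a gasdermin, was at 713 CPM against 5.89 CPM, and Ms4a5, a membrane protein of the CD20 family, at 791 CPM against 3.90 CPM. After thinning, C1rb, Fgl1, Gsdma and Ms4a5 were each found in 44.8% to 59.2% of members and 0.330% to 0.509% of the others, and in 0 of 86 leukocyte-type barcodes, with an exact 95% upper limit of 4.20% at that depth. Without thinning the 4 genes were found in 87.1% to 93.8% of members, 5.25% to 9.22% of the others and 1.16% to 6.98% of leukocyte-type barcodes. The rest of the 15 genes were Glb1l3 at 314 CPM (log2 ratio 4.71), Tmem97 at 238 CPM (3.76) and Ren1, described below. Of the 15 genes, 5 lie on chromosome 9 (Glb1l3, Mmp7, Pate14, Pate9 and Tgm4) and 4 on chromosome 6 (Akr1b3, C1rb, C1s2 and Tcaf3).

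**Figure D2:**
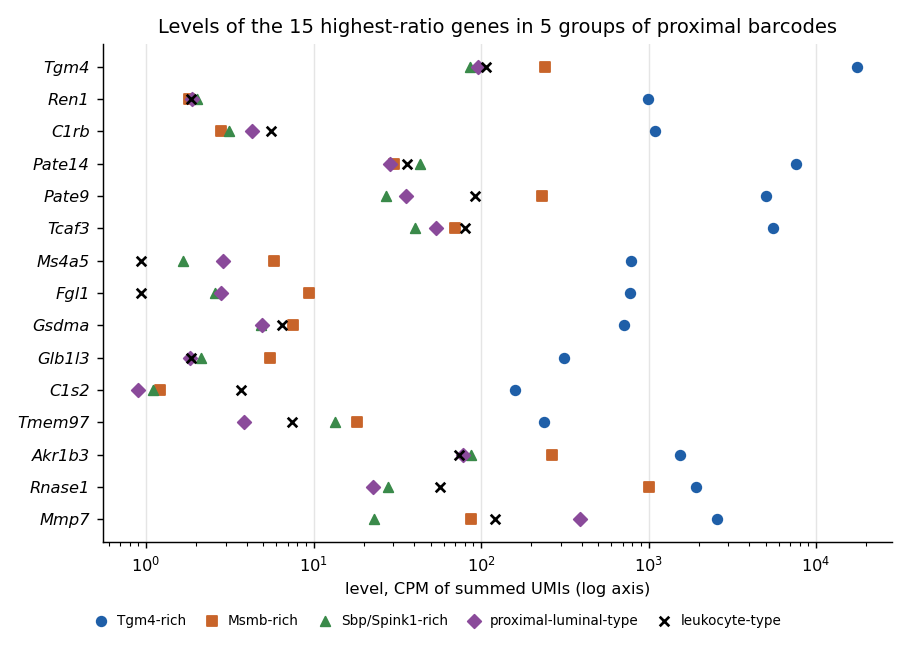
Levels in CPM (horizontal axis, logarithmic) of the 15 genes with the highest log2 ratio (vertical axis) in Tgm4-rich barcodes and 4 other groups of the proximal library, 1 symbol per group. Members are to the right for every gene, and for Rnase1 the Msmb-rich barcodes lie closest, at 1012 CPM against 1931 CPM.

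The genes with the lowest ratios were products of other cells. Sbp, the spermine-binding protein of the ventral lobe, was at 953 CPM in members and 45243 CPM in the others, and Spink1, a trypsin inhibitor, at 455 CPM against 23801 CPM, in both of which the rule had a part. Leukocyte-type barcodes had 1120 CPM of Sbp and 588 CPM of Spink1. After thinning Sbp was found in 61.8% of members and 75.6% of leukocyte-type barcodes. Neither gene was higher in members than in leukocytes, but both groups were chosen with at most 5% of Sbp and Spink1 together. The other 8 lowest genes had log2 ratios of -4.87 to -4.40. They were Prol1, the basal keratin Krt15, the protease inhibitors Wfdc3 and Spink5, the lipid carrier Apoe, S100a6, the matrix proteoglycan Dcn and the galectin Lgals3. For Prol1, at 14.3 CPM against 699 CPM, 32.0% of the UMIs in the other barcodes came from 1 barcode.

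The closest comparison was with Msmb-rich barcodes, a group rich in another prostate secretion with a median of 65567 UMIs. Of 11339 genes 280 (2.47%) were at least 2-fold higher and 240 (2.12%) at least 2-fold lower in members. The 5 highest log2 ratios were those of Pate14 at 7.57, C1rb at 6.42, Ren1 at 6.40 and Tgm4 and Tcaf3 at 6.13 each. The 5 lowest were those of Wfdc3 at -7.48, Msmb at -6.88, H2-Q10 at -6.20, the claudin Cldn10 at -4.73 and Pcp4 at -4.53. Wfdc3, an inhibitor of the WAP family, was at 27.4 CPM in members and 6658 CPM in Msmb-rich barcodes, and H2-Q10, a secreted class I MHC protein, at 1.85 CPM against 859 CPM. Msmb defined the second group, so its ratio is set by that rule. Pbsn, at -0.01, did not reach a 2-fold difference.

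Against Sbp/Spink1-rich barcodes, of 11123 genes 1611 (14.5%) were at least 2-fold higher and 190 (1.71%) at least 2-fold lower in members. The median log2 ratio of all genes was 0.45 here, and Sbp and Spink1 were at 334159 CPM and 175701 CPM in that group. Beside that median, Tgm4 at 7.52, Pate14 at 7.16, Pate9 at 7.08, Tcaf3 at 6.79 and C1rb at 6.38 were highest. The lowest were Spink1 at -8.56, Sbp at -8.44, Spink5 at -6.60, Nupr1 at -5.78 and the histone deacetylase Hdac9 at -5.03. The member rule sets the ratio of Tgm4, and the rules of both groups set those of Sbp and Spink1. Spink5, a multidomain protease inhibitor, was at 5.72 CPM in members and 1519 CPM in the Sbp/Spink1-rich group.

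Against proximal-luminal-type barcodes, of 13807 genes 945 (6.84%) were at least 2-fold higher and 1283 (9.29%) at least 2-fold lower. Pate14 at 7.62, Tgm4 at 7.36 (set by the rules of both groups), Pate9 at 6.78, Pbsn at 6.53 and Tcaf3 at 6.45 had the highest log2 ratios. Psca at -5.52, which helped define that group, S100a6 at -5.32, Lgals3 at -5.29, the urokinase receptor Plaur at -5.21 and Wfdc2 at -5.02 had the lowest. S100a6 was at 142 CPM in members and 6053 CPM in that group. Against all other barcodes, the 8 proximal luminal markers, which include the surface protein Ly6a, were all at least 2-fold lower in members, with a median log2 ratio of -3.89 beside -0.06 for all genes.

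Genes for making secreted proteins were higher in members. Of 31 genes of folding in the endoplasmic reticulum and the unfolded protein response, 24 were at least 2-fold higher and 1 lower than in the other barcodes, with a median log2 ratio of 1.37 beside -0.06 for all genes. The disulfide isomerase Agr2, which assists folding of secreted proteins, was at 2166 CPM against 275 CPM. Sdf2l1, Creld2 and Pdia4, also of the folding machinery, had log2 ratios of 2.45, 2.36 and 2.31. The chaperone Hspa5 (BiP) had the highest level of the list, 4214 CPM against 1811 CPM, and the oxidase gene Ero1lb was the 1 that was lower, with a log2 ratio of -1.03. The stress factor Ddit3 was at 242 CPM against 49.9 CPM, while Atf4 (log2 ratio 0.16) and Xbp1 (0.67) stayed under 2-fold.

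The translocon and N-glycosylation genes had 20 of 26 at least 2-fold higher and none lower, with a median of 1.25. Examples were Ssr4 of the translocon-associated complex (2005 CPM against 473 CPM), the oligosaccharyltransferase subunit Krtcap2 (653 CPM against 158 CPM) and the signal recognition particle subunit Srp14 (473 CPM against 126 CPM). Of 26 genes of transport from the endoplasmic reticulum to the Golgi, 8 were higher and none lower, led by Mcfd2 (log2 ratio 2.03), a partner of the cargo receptor Lman1 (1.30), and by Tmed3 (1.99). Compared with Msmb-rich barcodes alone, the median log2 ratios of these 3 lists were 0.14, 0.19 and 0.14. Only 3 genes, all of the folding list, were at least 2-fold higher there, where the median of all genes was 0.09 and 2.47% were higher. Compared with proximal-luminal-type barcodes they were 1.99, 1.61 and 1.04, where the median of all genes was -0.04. Compared with Sbp/Spink1-rich barcodes they were 1.61, 1.25 and 1.10, where the median of all genes was 0.45 and Sbp and Spink1 take up much of each barcode's UMIs. Lists of other functions were raised in that comparison too, where 14.5% of all genes were higher. Their medians were 1.40 for immediate-early and heat-shock genes (14 of 18 higher) and 0.97 for citrate genes (9 of 18 higher).

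**Figure D3:**
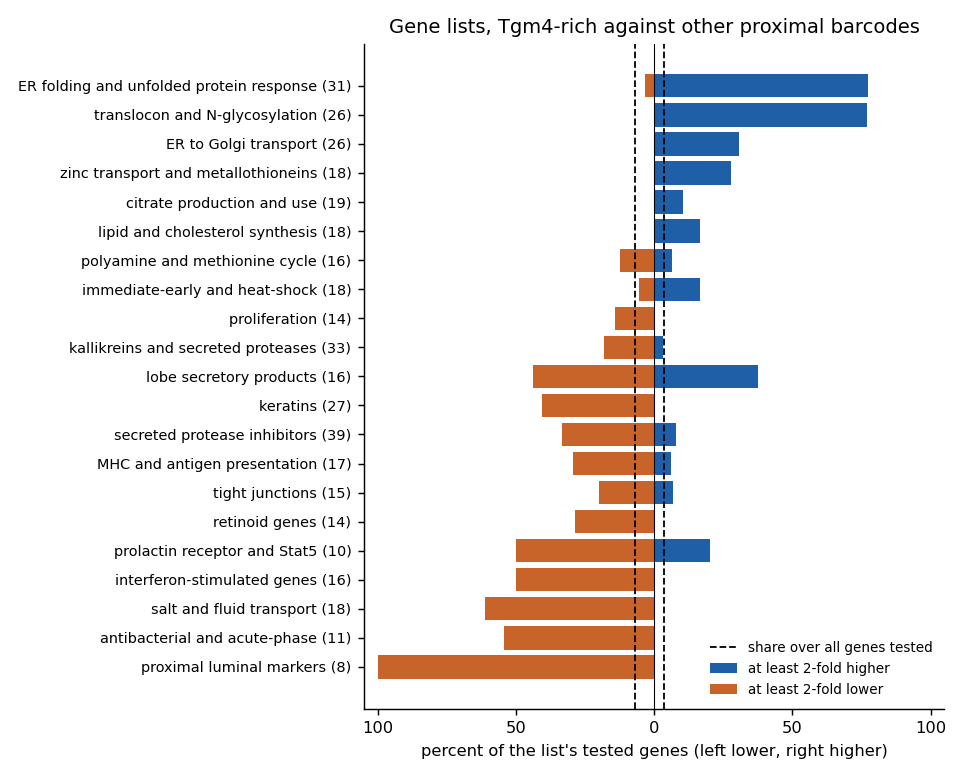
Percent of the tested genes of each list that were at least 2-fold higher (blue, right) or lower (orange, left) in Tgm4-rich than in other proximal barcodes, for the lists shown, each with at least 8 tested genes (number in brackets), ordered by median log2 ratio; dashed lines give the shares over all genes, 3.63% and 7.02%. The folding and translocon lists lie farthest to the right, with 24 of 31 and 20 of 26 genes higher, and the proximal luminal markers farthest to the left, with 8 of 8 lower.

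Metallothioneins, small proteins that bind zinc and copper, led the zinc genes. Mt1 was at 10214 CPM in members and 1086 CPM in the others (0, 0.906% and 5.09% of UMIs in the lowest, median and highest member), and Mt2 at 2110 CPM against 355 CPM. Mt3 and the vesicular zinc transporter Slc30a2 had log2 ratios of 2.80 and 1.79, at 98.5 CPM and 56.9 CPM in members. With Slc39a7, the zinc transporter of the endoplasmic reticulum (1.53), 5 of 18 genes were higher and none lower, with a median of 0.55. Prdx6, a peroxiredoxin that reduces phospholipid peroxides and a gene outside the rule for named genes, was at 7314 CPM against 824 CPM in the others and 4716 CPM in Msmb-rich barcodes.

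Several transcription factors of luminal cells were at least 2-fold higher in members. They were Gata2 (log2 ratio 2.12), Gata3 (1.69), Hoxb13 (1.41), Ehf (1.38) and Spdef (1.15). At least 2-fold lower were the androgen-induced cochaperone Fkbp5, at 25.4 CPM against 90.7 CPM, and the epithelial factor Elf3, at 34.6 CPM against 140 CPM. The pioneer factor Foxa1 was at 115 CPM in members and 118 CPM in the others.

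In the prolactin pathway the receptor Prlr was at 450 CPM in members and 90.2 CPM in the others, and the signal transducer Stat5a at 161 CPM against 25.5 CPM. After thinning, Prlr was found in 29.2% of members, 3.03% of the others and 1.16% of leukocyte-type barcodes. Msmb-rich barcodes had 394 CPM of Prlr, close to members. The other 8 genes included 5 that were at least 2-fold lower, Socs3 (log2 ratio -1.99), Stat3 (-1.59), the growth hormone receptor Ghr (-1.52), Socs1 (-1.04) and Jak2 (-1.01), and the list's median was -0.84. The feedback inhibitors Cish (-0.44) and Socs2 (0.31) stayed under 2-fold. Against Msmb-rich barcodes alone none of the 10 genes was higher and 3 were lower, beside 2.47% and 2.12% of all genes.

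Of 18 ion and water transport genes 11 were at least 2-fold lower and none higher, with a median of -1.15. Against Msmb-rich barcodes alone 5 of 14 were lower and 1 higher, where 2.12% of all genes were lower and 2.47% higher. Against Sbp/Spink1-rich barcodes 3 of 14 were lower and 2 higher, where 1.71% of all genes were lower and 14.5% higher. Against proximal-luminal-type barcodes 10 of 17 were lower and none higher, where 9.29% of all genes were lower and 6.84% higher. The chloride cotransporter Slc12a2 was at 57.7 CPM in members against 709 CPM, the pump regulator Fxyd3 at 171 CPM against 1202 CPM and the water channel Aqp5 at 3.70 CPM against 77.9 CPM. Of 27 keratins that reached the UMI minimum, 11 were lower and none higher, Krt15 (-4.75), Krt7 (-3.88) and Krt4 (-3.33) the most. No keratin was lower against the other secretory groups, where few of all genes were lower (2.12% and 1.71%). Against Msmb-rich barcodes 1 of 14 keratins was higher, beside 2.47% of all genes. Against Sbp/Spink1-rich barcodes 3 of 13 were higher, beside 14.5% of all genes, and the keratin median was 0.32 beside 0.45 for all genes. Against proximal-luminal-type barcodes 10 of 24 were lower, beside 9.29% of all genes. Of 15 tight junction genes Cldn8 was higher, at 127 CPM against 28.6 CPM, and Cldn10, Cldn1 and Tjp1 were lower. Tjp1 had a log2 ratio of -1.04, or -0.88 with the mean of per-barcode CPM. Of 14 tested against Msmb-rich barcodes 1 was higher and 1 lower, and of 14 against Sbp/Spink1-rich barcodes 6 were higher and 1 lower. Of 15 against proximal-luminal-type barcodes 1 was higher and 8 lower. The shares over all genes are those given above.

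The immune lists differed from each other. Of 17 MHC and antigen presentation genes 5 were lower, among them the class II chain Cd74 at 6.60 CPM against 261 CPM, and B2m, the light chain of class I molecules, was the 1 higher, at 2378 CPM against 1168 CPM, a log2 ratio of 1.02 that became 0.87 with a Tgm4 threshold of 1%. Of 16 interferon-stimulated genes 8 were lower, Ifitm3 the most, at 32.7 CPM against 456 CPM. Of 11 antibacterial and acute-phase genes 6 were lower, Wfdc2 the most (-4.22). The MHC list summed to 3471 CPM in members, 3362 CPM in the others and 43622 CPM in leukocyte-type barcodes, and Wfdc2 was at 925 CPM in proximal-luminal-type barcodes, both of which are among the others. Against Msmb-rich barcodes alone, 0 of 14 MHC genes and 5 of 14 interferon-stimulated genes were lower, beside 2.12% of all genes. Against Sbp/Spink1-rich barcodes 0 of 15 and 6 of 14 were lower, beside 1.71% of all genes. Among 14 retinoid genes 4 were lower and none higher, and the retinaldehyde dehydrogenase Aldh1a1 had a log2 ratio of -2.94.

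Of 106 secreted protease inhibitors 39 reached the UMI minimum, and 3 of these were higher and 13 lower, with a median of -0.48. Spink8, of the Kazal type, was at 151 CPM against 15.7 CPM, and Serpine2, an inhibitor of thrombin and plasminogen activators, at 186 CPM against 67.0 CPM. The third, Wfdc18, had 98.9% of its member UMIs in 1 barcode, and its log2 ratio of 1.16 became -1.36 with a Tgm4 threshold of 1%. Against Msmb-rich barcodes 5 of 25 inhibitors were higher and 3 lower, beside 2.47% and 2.12% of all genes. Against Sbp/Spink1-rich barcodes 6 of 23 were higher and 5 lower, beside 14.5% and 1.71%. Against proximal-luminal-type barcodes 4 of 30 were higher and 7 lower, beside 6.84% and 9.29%. Of 33 kallikreins and secreted proteases that reached the minimum Mmp7 was higher and 6 were lower. Of 7 seminal vesicle secretions 4 reached the minimum and were lower in summed UMIs, Svs2 (-3.27) the most. Svs5 was at 581 CPM against 3490 CPM, with 43.0% of its member UMIs in 1 barcode. After thinning, however, Svs5 was found in 8.50% of members, 7.37% of the others and 11.6% of leukocyte-type barcodes. With the mean of per-barcode CPM, Svs4 went from -1.15 to -0.04 and Svs6 from -1.09 to -0.59, so neither passed 2-fold.

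Metabolic lists moved less. Of 19 citrate genes 2 were higher, fumarate hydratase Fh1 (131 CPM against 43.1 CPM) and malate dehydrogenase Mdh1 (376 CPM against 166 CPM), and none lower. Spermidine synthase Srm was higher (1.26) and the polyamine acetyltransferase Sat1 (-1.25) and the methionine adenosyltransferase Mat2a (-1.23) were lower, of 16 polyamine and methionine-cycle genes. Of 18 lipid and cholesterol genes Fabp5, Fdps and Scd2 were higher, at log2 ratios of 1.20, 1.19 and 1.00, but Fabp5 was at 0.77 with the mean of per-barcode CPM and Scd2 at 0.92 with a Tgm4 threshold of 1%. Of 14 proliferation genes Stmn1 and Pcna were lower and none higher. Of 18 immediate-early and heat-shock genes the chaperone Hsph1 (446 CPM against 104 CPM), Jun (log2 ratio 1.20) and Ier2 (1.13) were higher and Ier3 (-1.92) was lower. Against Msmb-rich barcodes alone none of the 18 was higher and 1 was lower, beside 2.47% and 2.12% of all genes. Against proximal-luminal-type barcodes 3 were higher and 2 lower, beside 6.84% and 9.29%.

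Members differed among themselves in 3 ways. The first was Malat1, a nuclear long noncoding RNA. In 83 members (23.25%) it made up under 0.1% of UMIs, against 31 of the other barcodes (0.925%). These 83 members had medians of 10563 UMIs, 2500 genes and 1.68% mitochondrial UMIs, and the other 274 members 43772.5 UMIs, 6353 genes and 3.86%. Their median Tgm4 share was 1.97% against 1.62%, and their Pbsn share 3.15% against 1.62%. The immediate-early factor Jun was at a median of 0.0416% in them against 0.423%, and Pate14 at 0.873% against 0.0698%. Low Malat1, lower depth, fewer genes and a lower mitochondrial share therefore went together, and the state of these cells was not tested. Without barcodes poor in Malat1, a setting added after the data were seen, 590 genes were at least 2-fold higher and 1103 lower.

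**Figure D4:**
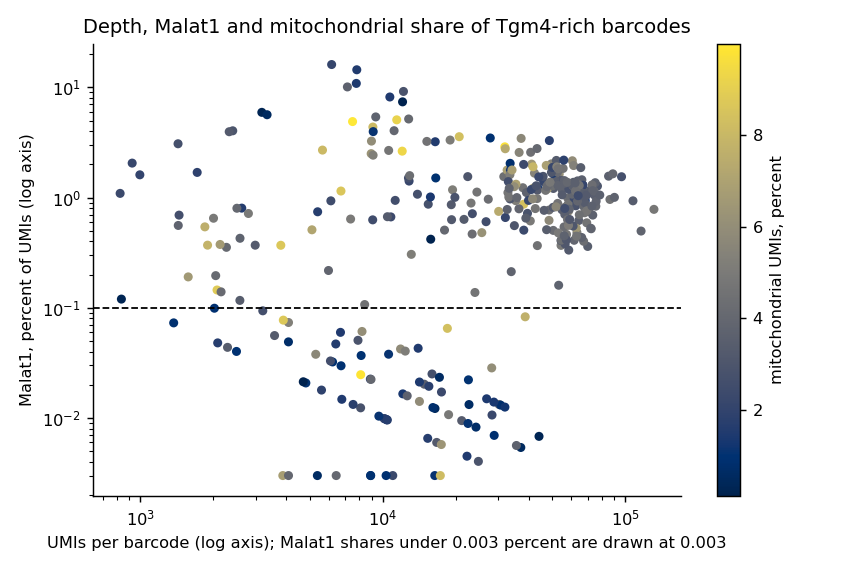
Malat1 share in percent of UMIs (vertical axis, logarithmic) against UMIs per barcode (horizontal axis, logarithmic), 1 point per Tgm4-rich barcode, coloured by the percent of mitochondrial UMIs, with a dashed line at 0.1%. The 83 members below the line have a median of 10563 UMIs, and those above it 43772.5.

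The second was Pate14. Of 357 members 121 had under 0.02%, 127 had at least 0.5% and 109 lay between. Among the 226 members with at least 10000 UMIs and at least 0.1% Malat1, 86 were under 0.02% and 68 at 0.5% or more, so the spread was not limited to shallow barcodes. Across these 226 barcodes Pate14 had a Spearman correlation of 0.06 with Tgm4 and of -0.07 with Pate9, whereas Tgm4 had 0.42 with Pate9, 0.56 with Fgl1, 0.55 with Prdx6 and 0.63 with 9530053A07Rik. These correlations are across shares of barcodes of 1 library, which add up to a fixed total, and are given as descriptions.

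The third was a split between Ren1 and Defb50. Ren1 (chr1:133350510-133360325) encodes renin, the protease that cleaves angiotensinogen, and was at 989 CPM in members against 2.23 CPM in the others. It was uneven among members, since 237 had no UMI, 71 had a share under 0.05% and the remaining 49 held 97.6% of all member Ren1 UMIs, with a highest share of 1.92%. After thinning it was found in 11.9% of members, 0.270% of the others and 0 of 86 leukocyte-type barcodes, and without thinning in 33.6%, 5.16% and 2.33%. Defb50, a beta-defensin, was lower in members than in the others when UMIs were summed, at 4693 CPM against 13943 CPM (log2 ratio -1.57), but not in the mean of per-barcode CPM (0.02). Msmb-rich barcodes had 103579 CPM of it. Its share among members ran from 0 through a median of 0.0933% to 10.3%.

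To set the 2 genes side by side, the 226 deep members were grouped by Defb50 share, with limits chosen after the data were seen. There were 102 with under 0.05%, 34 from 0.05% to under 0.2% and 90 with at least 0.2%, and 14 barcodes lay within 20% of the lower limit. In the low group 39 barcodes had a Ren1 share of at least 0.05%, in the middle group 3 and in the high group 0, where the highest Ren1 share was 0.0206% and 75 of 90 had no UMI. Ren1 was at 2054 CPM in the low and 8.95 CPM in the high group. The Spearman correlation of Ren1 and Defb50 over the 226 barcodes was -0.56. High Ren1 was therefore seen in Defb50-low barcodes and, in 3 cases, in the middle group, but most Defb50-low barcodes had little Ren1.

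**Figure D5:**
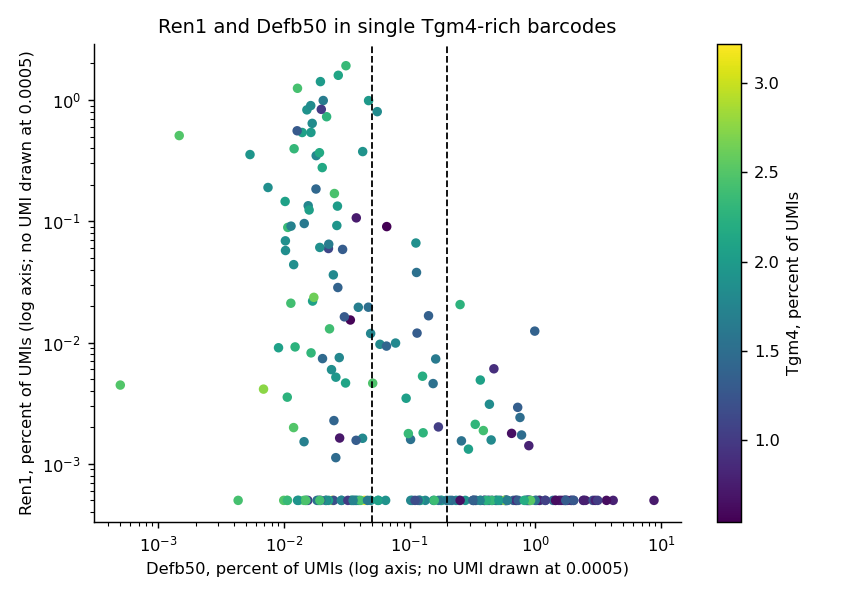
Ren1 share against Defb50 share, both in percent of UMIs on logarithmic axes, for the 226 Tgm4-rich barcodes with at least 10000 UMIs and at least 0.1% Malat1, coloured by Tgm4 share, with dashed lines at 0.05% and 0.2% Defb50. No barcode right of the second line has more than 0.0206% Ren1.

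The Defb50-high and Defb50-low members were also compared over all genes. Of 9330 genes with enough UMIs, 78 (0.836%) were at least 2-fold higher and 27 (0.289%) at least 2-fold lower in the high group. The defensin Defb1, also on chromosome 8, was at 1558 CPM in the high and 156 CPM in the low group. The growth factor Nrg1 was at 911 CPM against 246 CPM, Prlr at 792 CPM against 274 CPM, the membrane peptidase Mme at 421 CPM against 121 CPM and the secreted glutathione peroxidase Gpx3 at 643 CPM against 132 CPM. In the low group Mt3 (161 CPM against 39.3 CPM), Glb1l3 (453 CPM against 154 CPM) and Fgl1 (974 CPM against 421 CPM) were higher. Svs5, Svs4 and Pate4 were also higher in the high group, but 3 barcodes held 90% of their UMIs there. Msmb was at 816 CPM in the high and 73.8 CPM in the low group, and at 480 CPM in the high group without its highest barcode, and its part in the split was not tested.

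Some genes of high level in members were less than 2-fold apart between these groups. The median Tgm4 share was 1.91% in the low, 1.78% in the middle and 1.36% in the high group. Pate9 was at 4773 CPM in the low and 4869 CPM in the high group, Pbsn at 16982 CPM and 19003 CPM, and Pate14 at 6109 CPM and 6827 CPM. Median depth was 56771 UMIs in the low and 47288.5 UMIs in the high group, and the median mitochondrial share 3.94% and 3.84%. These genes were chosen after their values were seen, and with 1 library no replicate bears on the split.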

How the data were processed

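The values are raw UMI counts of genes in barcodes, which per the file headers were made with Cell Ranger 7.0.0 before they were deposited. The submitters' processing notes name build mm10, and the annotation is not given in the sources used here. Both libraries list 32285 genes, of which 32158 identifiers were matched to GENCODE M21 (GRCm38) for positions. Computation used Python 3.11.15 with numpy 2.4.6, scipy 1.17.1 and pandas 2.3.3. UMIs were summed per group and scaled to CPM, and genes with at least 50 UMIs over both groups were called at 2-fold after adding 10 CPM. Poisson and Clopper-Pearson intervals are exact at 95%. Members, gene lists and comparison groups were chosen with earlier results of these data known, and the leukocyte-type group and the limits on Malat1, Defb50, Ren1 and Pate14 were set after the data were seen.

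The named genes are the 15 highest and 10 lowest log2 ratios against the other barcodes, 5 in each direction against each of the 3 luminal groups, and up to 4 per direction plus the most abundant gene of each list. Gm-number, Rik, mitochondrial, ribosomal, immunoglobulin and haemoglobin genes were left out of these ranks. Genes named beyond this rule, among them Foxa1, Epcam, Atf4, Xbp1, Ddit3, Slc39a7, Spdef, Jak2, Cdh5, Kdr, Prdx6 and Malat1, were chosen after their values were seen. Scrublet (scanpy 1.11.5) called 4 of 3709 barcodes doublets (0.108%), none of them a member. The expected share rises by 0.8% with every 1000 barcodes, which gives 110 of these 3709 barcodes. The 4 calls are far below that number, so doublets may remain. They were kept, and an alternative left out the 110 highest scores. The calculation was tested on simulated counts. Some genes of the lists are not reported here. Alternatives covered the filters, the thresholds of the rule, scaling, pseudocount, UMI minimum, free RNA and the mean of per-barcode CPM.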

Additional observations from a re-analysis of the deposited data

How the results depend on the processing

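Under 15 alternatives the numbers of genes at least 2-fold higher (597) and lower (1154) stayed within 1.5 times, except with a pseudocount of 1 CPM, which gave 1330 higher and 3609 lower. That setting weighs genes of low level more. Scaling without the 20 most abundant genes gave 851 higher and 1132 lower. The share of barcodes that met the rule, 9.63%, became 8.30% at a Tgm4 threshold of 1% and 11.2% with at most 5% mitochondrial UMIs. Of 165 single-gene results past 2-fold, 13 fell under 2-fold or changed sign in some alternative. Of these 165, values moved by over 1.5-fold for 53 with 5% free RNA subtracted, 52 with the mean of per-barcode CPM and 60 with a pseudocount of 1 CPM. Defb50 went from -1.57 to 0.02 with the mean of per-barcode CPM. Wfdc18 went from 1.16 to -1.36 at a Tgm4 threshold of 1% and to -0.98 without the highest Scrublet scores, a setting added after the data were seen, and 98.9% of its member UMIs lay in 1 barcode. Svs4 (-0.04), Svs6 (-0.59) and Pate4 (-0.91) were under 2-fold with the mean of per-barcode CPM. The cause was not tested for Defb50, Svs4, Svs6 and Pate4. No paired analysis was possible because each region has 1 library. The depth of single barcodes, 825 UMIs in the lowest member, limits shares of genes found in few UMIs.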

Other observations

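Some listed markers of other cell types had UMIs in many members. Ms4a1, which encodes the B cell antigen CD20 and lies near Ms4a5 on chromosome 19, had 78 UMIs in 52 members and 12 UMIs in all other proximal barcodes, at 6.28 CPM against 0.147 CPM. The B cell receptor genes Cd79a and Cd79b were at 2.98 CPM and 1.61 CPM in members and 4.36 CPM and 1.94 CPM in the others. Emcn, listed as an endothelial marker, had 191 UMIs in 98 members, where the endothelial genes Cdh5, Kdr and Vwf had 3, 4 and 3 UMIs. These genes were chosen after their values were seen.

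Single barcodes held nearly all UMIs of a few genes. The gland secretion genes Wfdc18, Pip and Smr2 had 98.9%, 98.0% and 95.4% of their member UMIs in 1 barcode each, and the haemoglobin gene Hbb-bs had 98.3% in 1 barcode. Svs5 was the most abundant gene in 3 members and reached 9.32% of UMIs in the highest.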
